A study of Macaca mulatta and Mus musculus and Rattus norvegicus with 12 samples.

Results

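The secreted Wnt antagonists of bone are extracellular proteins that hold back Wnt signalling, and 10 of their genes were followed here: SOST, SOSTDC1, DKK1, DKK2, DKK3, FRZB, SFRP1, SFRP2, SFRP4 and WIF1. They were found by gene symbol in tables that listed 38599 symbols for mouse, 35259 for rat and 28641 for macaque. All 10 had a row of their own symbol in mouse and in rat. In macaque 7 of 10 had such a row, while SOST, SOSTDC1 and SFRP2 were absent by symbol and stood under the locus names LOC713617, LOC709577 and LOC699915, which were matched to these genes by their RefSeq gene IDs. With these rows counted, at least 1 read was found for 10 members in mouse, 9 in rat and 9 in macaque.

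The libraries were poly(A)+ RNA from untreated, osteocyte-enriched bone of the calvaria (the skull vault) and the tibia (the shin bone). Mouse C57BL6 females of 4 months gave libraries of calvaria (M4, M8) and of tibia (M5, M7), 2 per site and each pooled from 3 animals, and Wistar rat females of 6 months gave a single library per site (R1 from calvaria, R3 from tibia), each pooled from 2 animals. Rhesus macaque females gave 3 libraries per site, G1, G3 and T1 from calvaria and G2, G4 and T2 from tibia, of 1 animal each. Their age is written as 4-6 months in the labels but as years in the study's methods. The question was whether the skull, which keeps its mass under little load, and the tibia, which needs load, differ in the genes that osteocytes express.

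Wnt ligands bind a Frizzled receptor together with LRP5 or LRP6, and in bone this stimulates bone formation. Sclerostin (SOST), its relative SOSTDC1 and the Dickkopf proteins DKK1 and DKK2 bind LRP5 and LRP6, whereas the secreted Frizzled-related proteins (FRZB and the SFRP genes) and WIF1 bind the Wnt ligands. Sclerostin is made mainly by osteocytes, is lowered by mechanical load, and its loss in people causes sclerosteosis, with overgrowth of the skull among other bones. DKK3 belongs to the Dickkopf family by sequence but does not act on LRP6 in the same way.

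The LRP-binding antagonists carry a short loop of asparagine, any residue and isoleucine that docks on the first propeller domain of LRP6. The coding sequence around this loop is shown for the 4 mouse genes of that class, since they share a docking motif and yet differed widely in level in the same bones. The stretches are from GENCODE vM21 transcripts on GRCm38, 5′ to 3′ in the sense of the gene, each within 1 coding exon, and capitals mark the 3 codons of the loop. They lie at chr11:101964107-101964163 on the minus strand for Sost, chr12:36317136-36317192 on the plus strand for Sostdc1, chr19:30549227-30549283 on the minus strand for Dkk1 and chr3:132086114-132086170 on the plus strand for Dkk2.
Sost: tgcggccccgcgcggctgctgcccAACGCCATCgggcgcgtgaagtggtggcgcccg
Sostdc1: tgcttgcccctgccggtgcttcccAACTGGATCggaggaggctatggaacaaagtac
Dkk1: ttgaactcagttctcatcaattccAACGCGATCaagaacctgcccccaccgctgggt
Dkk2: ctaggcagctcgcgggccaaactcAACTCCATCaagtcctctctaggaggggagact
Sost and Dkk1 both encode asparagine, alanine and isoleucine, with different alanine codons. The motif is common: 46.7% of 7592 mouse genes that encode 200 to 400 residues held it at least 1 time, and 3.42% held the form with alanine. It also occurred in the coding sequences of FRZB, SFRP2, SFRP4 and WIF1 and not in those of DKK3 and SFRP1. The form with alanine was not particular to Sost and Dkk1, since FRZB, SFRP4 and WIF1 held it too. A match of letters is no evidence of binding.

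Reads counted on genes ranged from 13934813 to 16826535 per mouse library, from 12233256 to 14255423 in rat and from 7951585 to 10342459 in macaque. All 5 osteocyte markers (DMP1, MEPE, PHEX, FGF23 and PDPN) were detected in mouse, while rat lacked FGF23. Their summed level was higher in tibia in every species, at 1696 to 2034 CPM (reads per 1000000 reads on genes) against 342 to 549 in mouse calvaria, 7241 against 500 in rat, and 7289 to 16942 against 4826 to 5528 in macaque. The macaque sum was nearly all MEPE (16524 of 16754 CPM in G2), only 1 of the 5 markers was called there, and PHEX was lower in tibia by its mean (24.0 against 27.8 CPM). Fewer osteocytes in a sample and less RNA of a gene per osteocyte cannot be told apart in such bulk libraries. The summed level of 6 neutrophil lineage markers, most of it S100A8 and S100A9 (in macaque S100A8), was high at both sites and higher in calvaria, at 86294 to 112716 against 51837 to 59167 CPM in mouse, 74636 against 40299 in rat and 18287 to 30583 against 3354 to 6795 in macaque. Of these markers 2 of 6 were called in mouse, while ELANE, CSF3R and LTF in M4 lay below both tibiae and MPO in rat was lower in calvaria (969 against 1132 CPM). The M4 calvaria stood apart from M8 in genes of fibrous tissue, with POSTN at 454 against 71.4 CPM and DPT at 122 against 11.8 CPM, so results that rest on M4 are given with and without it. Other lists differed too. Osteoblast markers summed to 24824 CPM in M4 and 11165 in M8, chondrocyte markers to 85.2 and 27.9 and skeletal muscle markers to 1637 and 764. Neutrophil, B lineage, endothelial and erythroid sums were lower in M4. The erythroid sum was 903 CPM in M4, 2535 in M8 and 1250 to 1379 in the tibiae.

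In mouse, SOST, DKK1 and FRZB were higher in tibia and SFRP2 was higher in calvaria by the quasi-likelihood test of edgeR, adjusted by Benjamini-Hochberg. Called means here an adjusted p below 0.2 together with a change of more than 1.1-fold. These cut-offs follow the study's methods. Of the 10 members tested, 3 were called higher in tibia, where 1.57% of the 22339 genes tested were, and 1 was called higher in calvaria, where 0.712% were. Calls in either direction thus came to 4 of 10 members against 2.28% of all genes. The median log2 fold change of the members, calvaria over tibia, was -0.87 against 0.05 over all genes.

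**Figure D1:**
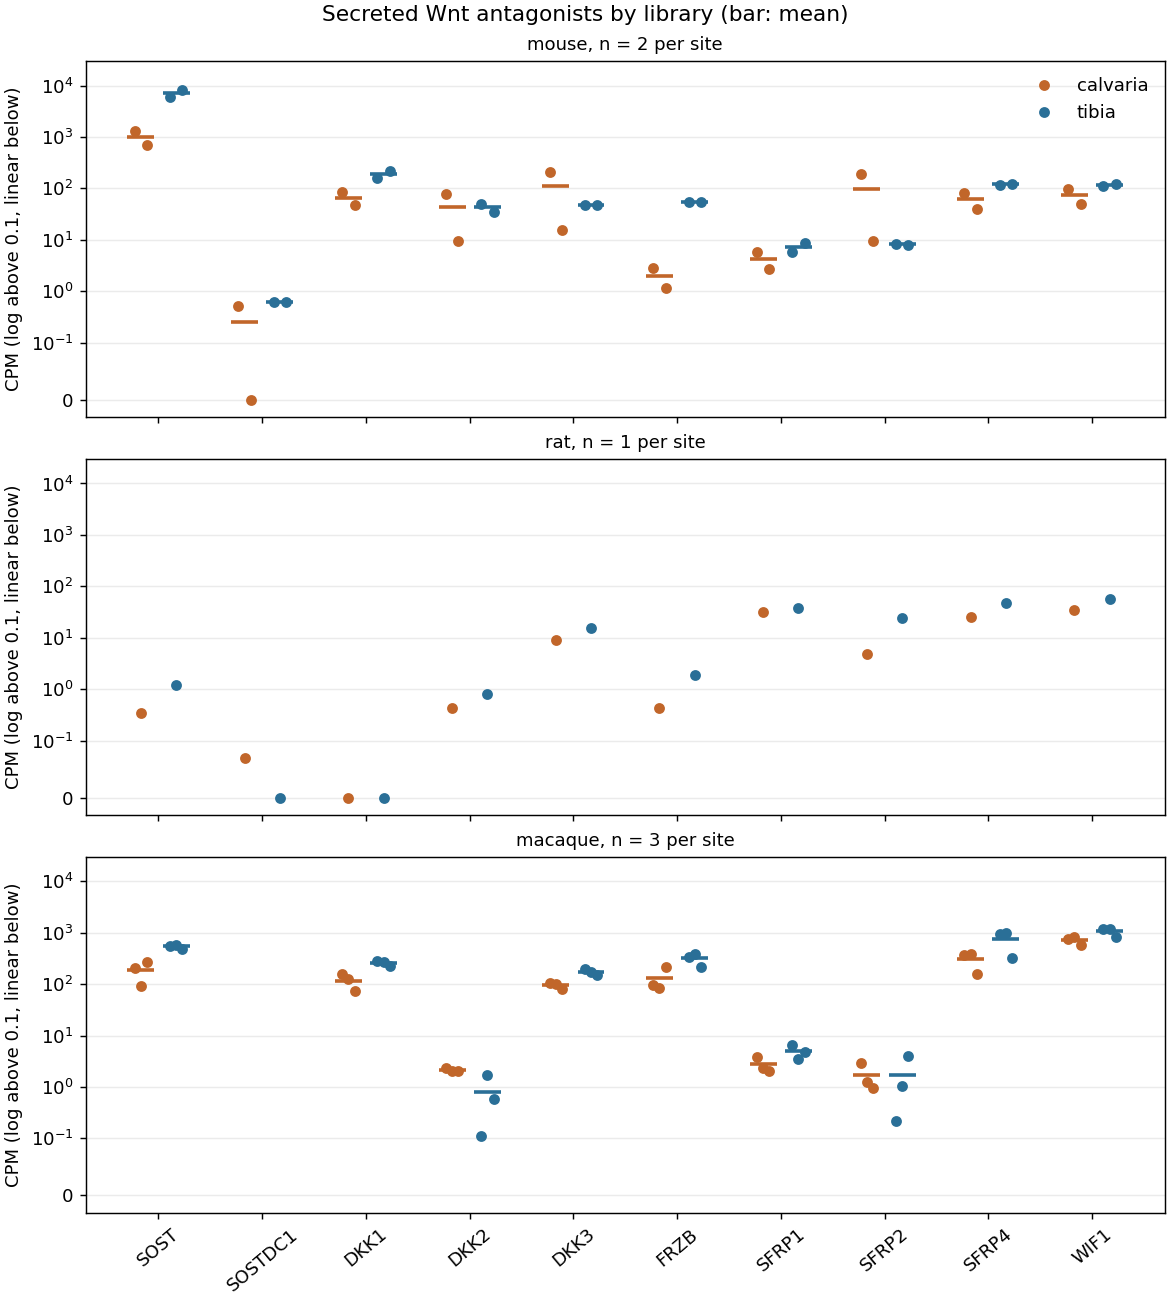
CPM of the 10 antagonists in each library, scaled by TMM in mouse and macaque, on an axis that is logarithmic above 0.1 and linear below, with calvaria in orange and tibia in blue and a bar at the mean where there are replicates. In mouse SOST reached 5927 and 8335 in tibia against 1298 and 700 in calvaria, and macaque SOSTDC1, without reads, has no points.

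SOST was the most abundant member in mouse at both sites. Its normalised CPM were 1298 (M4) and 700 (M8) in calvaria against 5927 (M5) and 8335 (M7) in tibia. The sites did not overlap, and the mean was 7.14-fold higher in tibia (log2 fold change -2.84, SE 0.324, adjusted p = 0.000479). DMP1, a matrix phosphoprotein that marks osteocytes, moved with it: there were 9.25 and 8.51 reads of SOST for every read of DMP1 in calvaria and 7.36 and 9.91 in tibia, ranges that overlap. Against MEPE, another osteocyte gene of mineral control, the ratios were 4.36 and 3.45 in calvaria and 8.42 and 8.496 in tibia and did not overlap, nor did those against PHEX (23.8 and 19.6 against 51.0 and 63.5). SOSTDC1, the closest relative of SOST, was near the limit of detection with 8 and 0 reads in calvaria and 11 and 9 in tibia, and was not called (adjusted p = 0.874).

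DKK1, which blocks LRP6 and is made by osteocytes and osteoblasts, stood at 84.3 and 47.0 normalised CPM in mouse calvaria and 162 and 223 in tibia. The sites did not overlap, with a log2 fold change of -1.55 (SE 0.315, adjusted p = 0.0333). Per read of DMP1 the order was the other way round, with 0.601 and 0.572 reads of DKK1 in calvaria and 0.202 and 0.265 in tibia. Per read of MEPE the sites were close (0.283 and 0.232 against 0.231 and 0.227), and per read of PHEX, also an osteocyte gene, they overlapped (1.54 and 1.32 against 1.40 and 1.70). The SOST and DKK1 calls depended on which genes were tested. The study's methods tested genes with a read in every sample. With that filter the edgeR adjusted p rose to 0.284 for SOST and 0.472 for DKK1 at nearly the same fold changes. FRZB alone of the members stayed called there (edgeR adjusted p = 0.154), beside 14 of 16740 genes.

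FRZB, a decoy for Wnt ligands best known from cartilage, showed the widest difference among the members. Its normalised CPM were 2.88 and 1.14 in mouse calvaria and 55.5 and 55.3 in tibia. That is a log2 fold change of -4.76 (SE 0.403, adjusted p = 2.94e-05), and the sites did not overlap. Per read of DMP1, FRZB gave 0.0205 and 0.0139 reads in calvaria and 0.0689 and 0.0658 in tibia, so the sites stayed apart, as they did per read of MEPE and of PHEX. Without M4 the log2 fold change was -5.62 and without M8 -4.27. Some genes of cartilage and joint surface were also higher in the mouse tibiae. PRG4, the joint lubricant lubricin, stood at 1903 and 2052 CPM in tibia and 18.8 and 4.50 in calvaria, and COL2A1, the main collagen of cartilage, at 592 and 476 against 58.2 and 10.4. Of 6 chondrocyte markers, 4 were called higher in tibia, with summed levels of 547 to 655 CPM against 27.9 to 85.2. COL2A1 made up most of the tibia sums, and COL9A1 was highest in M4 (1.34 CPM against 0.961 and 0.410 in tibia). PRG4 was taken from the list of fibrous tissue markers, which did not move as a whole. Of that list 2 of 8 were called higher in tibia, with a median log2 fold change of -0.05. Adipocyte markers were also higher in tibia (3 of 5 called, summed levels of 56.8 to 80.6 against 9.07 to 14.1 CPM), as were 2 of 4 endothelial markers. The part of these tissues in the FRZB and other tibia values was not tested.

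SFRP2, DKK3 and DKK2 shared a pattern in which the calvaria libraries disagreed. SFRP2, expressed by fibroblasts and bone-forming precursors, was at 188 normalised CPM in M4, 9.60 in M8, 8.25 in M5 and 8.00 in M7. It was called higher in calvaria (log2 fold change 3.60, SE 0.840, adjusted p = 0.0687), but without M4 the log2 fold change was 0.21 (adjusted p = 0.685), and without M8 it was 4.52. DKK3 was at 211 in M4 and 15.6 in M8, with both tibiae between them at 48.4 and 48.5. DKK2 was at 78.0 in M4 and 9.60 in M8, and the tibiae lay at 50.5 and 35.4. Neither was called (adjusted p = 0.756 and 0.995), and without M4 their log2 fold changes turned from 1.23 and 0.03 to -1.66 and -2.19. The ratio of M4 to M8 was 19.6 for SFRP2, 13.5 for DKK3 and 8.12 for DKK2, and from 1.79 to 2.52 for the other members with reads in both. All 8 fibrous tissue markers were higher in M4 too, by ratios from 1.76 for TNMD to 10.3 for DPT. So were the osteoblast markers, by ratios from 1.51 for RUNX2 to 3.69 for ALPL. Whether any of these genes and the antagonists came from the same cells was not tested.

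**Figure D2:**
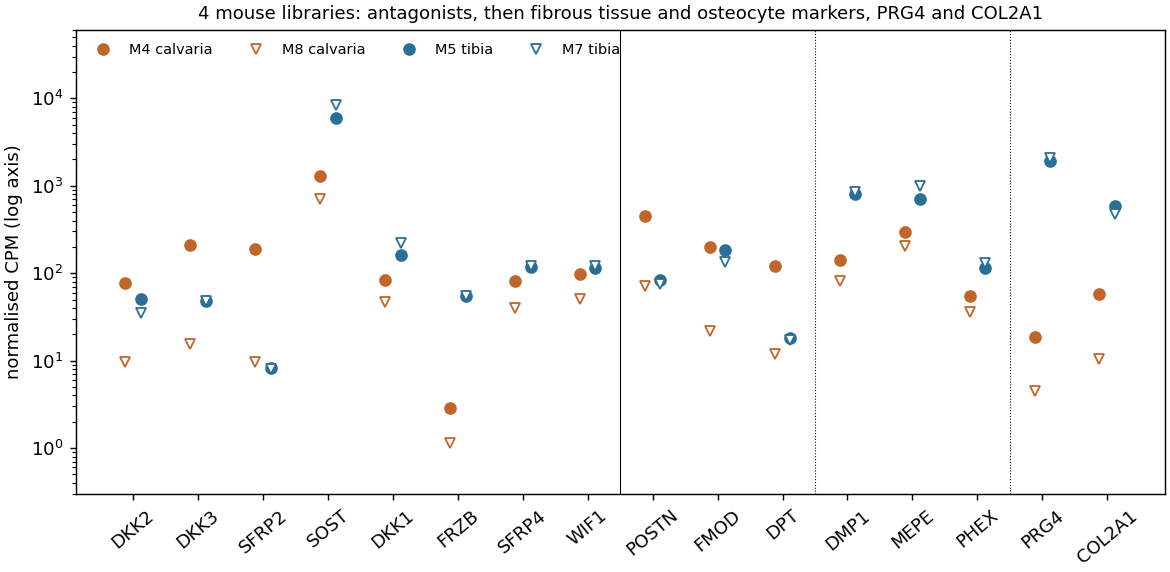
Normalised CPM on a log axis in the 4 mouse libraries for 8 antagonists and for fibrous tissue markers (POSTN, FMOD and DPT), osteocyte markers (DMP1, MEPE and PHEX), PRG4 and COL2A1, with filled circles for M4 and M5 and open triangles for M8 and M7. In DKK2, DKK3, SFRP2, POSTN, FMOD and DPT, M4 lies above both tibiae and M8 close to or below them.

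The other members differed less in mouse. SFRP4, whose loss causes thin cortical bone in Pyle disease, was at 82.2 and 40.1 normalised CPM in calvaria and 119 and 122 in tibia, without overlap but not called (log2 fold change -0.98, SE 0.319, adjusted p = 0.276). WIF1, a Wnt-binding product of mature osteoblasts, was at 98.4 and 50.1 against 114 and 121 (adjusted p = 0.624), again without overlap. Per read of DMP1, of MEPE and of PHEX, SFRP4 and WIF1 were higher in calvaria, without overlap. Per read of DMP1, SFRP4 gave 0.586 and 0.487 reads in calvaria and 0.148 and 0.145 in tibia, and WIF1 0.702 and 0.609 against 0.141 and 0.144. SFRP1 stayed low, at 5.82 and 2.74 against 5.93 and 8.62 (adjusted p = 0.808). The sites did not overlap for 8 of 10 members, 7 of them with the tibiae on top, while 35.7% of all genes tested showed no overlap with 2 libraries a site. Without M4 the log2 fold changes of SFRP4, WIF1 and SFRP1 were -1.61, -1.26 and -1.43, and without M8 they were -0.56, -0.26 and -0.32. Each of these fits left 1 calvaria library, which was assumed to vary like the tibiae, so their calls are not counted.

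In macaque, 6 of the 9 members tested were higher in tibia, namely SOST, DKK1, DKK3, FRZB, SFRP4 and WIF1, and none was called higher in calvaria. The background was high, since the same edgeR test called 19.7% of 18894 genes, 9.43% higher in tibia and 10.3% higher in calvaria. The median log2 fold change of the members was -0.87 against 0.03 over all genes. Blood cell markers moved strongly the other way: the 5 neutrophil lineage genes tested and the 4 erythroid genes tested were all called higher in calvaria, and the latter summed to 1435 to 1852 against 277 to 430 CPM. Some fibrous tissue markers moved with the members: 3 of 6 tested were called higher in tibia (median log2 fold change -1.36), with POSTN at 32.7 to 37.7 against 5.70 to 10.2 CPM and FMOD at 11.7 to 13.2 against 2.65 to 3.64 CPM. The list summed to 153 to 223 against 98.3 to 158 CPM. Most of this sum was DPT, whose sites overlapped, at 145, 141 and 83.7 CPM in G1, G3 and T1 against 164, 145 and 99.99 in G2, G4 and T2. THBS4 overlapped too, and PRG4 had reads only in the calvaria G1. Scaling by library size alone in place of TMM moved the median over all genes by -0.20 on the log2 scale and left these 6 calls in place. The part of blood cells and fibrous tissue in the members' values was not tested.

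SOST in macaque, counted on the row described as sclerostin-like, was at 207, 91.0 and 267 normalised CPM in the calvariae G1, G3 and T1 and at 553, 588 and 489 in the tibiae G2, G4 and T2. The sites did not overlap (log2 fold change -1.53, SE 0.232, adjusted p = 6.5e-06), and the mean was 2.89-fold higher in tibia. DMP1 hardly differed in level, with means of 164 in calvaria and 189 CPM in tibia, so SOST reads per DMP1 read kept the sites apart, at 1.44, 0.519 and 1.54 in calvaria and 2.90, 2.52 and 3.39 in tibia. MEPE was 2.64-fold higher in tibia by its mean CPM, and against MEPE the ratios of SOST overlapped, at 0.0388, 0.0198 and 0.0503 against 0.0335, 0.0353 and 0.0689. Against PHEX they did not (6.98, 2.75 and 12.96 against 25.2, 26.7 and 17.6). SOSTDC1 had no read in any macaque library, which allows up to 3 reads each, or 0.29 to 0.377 CPM.

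DKK1 in macaque was at 155, 125 and 72.7 normalised CPM in calvaria and at 282, 271 and 222 in tibia, without overlap (log2 fold change -1.13, SE 0.207, edgeR adjusted p = 0.000121). Per read of MEPE the sites of DKK1 overlapped, at 0.0290, 0.0272 and 0.0137 against 0.0170, 0.0163 and 0.0313. Per read of DMP1 and of PHEX the tibiae of DKK1 stayed on top. DKK3 was at 105, 98.9 and 80.7 in calvaria and at 197, 174 and 148 in tibia. It too was called without overlap (log2 fold change -0.87, SE 0.185, adjusted p = 0.00099), and its 3 calvaria values lay close together, unlike those of M4 and M8 in mouse. DKK2 was rare, at 2.29, 2.01 and 2.06 CPM in calvaria and 0.109, 1.71 and 0.582 in tibia. It was the only member of macaque whose calvariae all lay above the tibiae, but it was not called (log2 fold change 1.40, SE 0.764, adjusted p = 0.294), and it counted 1 to 19 reads a library. With the libraries paired as G1 and G2, G3 and G4, and T1 and T2, DKK2 was called (edgeR adjusted p = 0.135). SFRP1 was called there too (edgeR adjusted p = 0.192), which brought the members called to 8, beside 4784 of 18894 genes. DKK2 was also called without G4 (log2 fold change 2.54, adjusted p = 0.0644).

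Among the Wnt-binding members of macaque, T1 and T2 often lay apart from the G libraries. FRZB was at 96.3 and 85.8 normalised CPM in the calvariae G1 and G3 but at 213 in T1, level with the 213 of the tibia T2 and below the 344 and 393 of G2 and G4. It was called (log2 fold change -1.26, SE 0.241, adjusted p = 0.000225) although the sites overlapped. SFRP4 was at 376, 386 and 159 in G1, G3 and T1 and at 948, 996 and 321 in G2, G4 and T2. Here T2 lay below the calvariae G1 and G3, and the call (log2 fold change -1.30, SE 0.274, adjusted p = 0.000881) again went with overlap. WIF1 was at 761, 811 and 565 in calvaria and 1199, 1188 and 840 in tibia, without overlap (log2 fold change -0.59, SE 0.193, adjusted p = 0.0395). The WIF1 call was lost without G2 (edgeR adjusted p = 0.218) and without T1 (edgeR adjusted p = 0.231). Per read of MEPE the sites of WIF1 overlapped, at 0.143, 0.176 and 0.107 against 0.0726, 0.0712 and 0.118. They overlapped per read of DMP1 too, but not per read of PHEX. FRZB and SFRP4 overlapped per read of MEPE and of PHEX, and SFRP4 also per read of DMP1, where FRZB did not. SFRP1, at 2.06 to 3.86 CPM in calvaria and 3.42 to 6.45 in tibia, and SFRP2, at 0.969 to 2.89 and 0.219 to 3.98, were low and not called, with 17 to 59 reads and 2 to 41 reads a library. With the G libraries alone the same 6 members were called, all higher in tibia, where 2015 of 18041 genes were (4333 in either direction). In all, 5 of 9 members showed no overlap, against 24.9% of all genes tested.

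**Figure D3:**
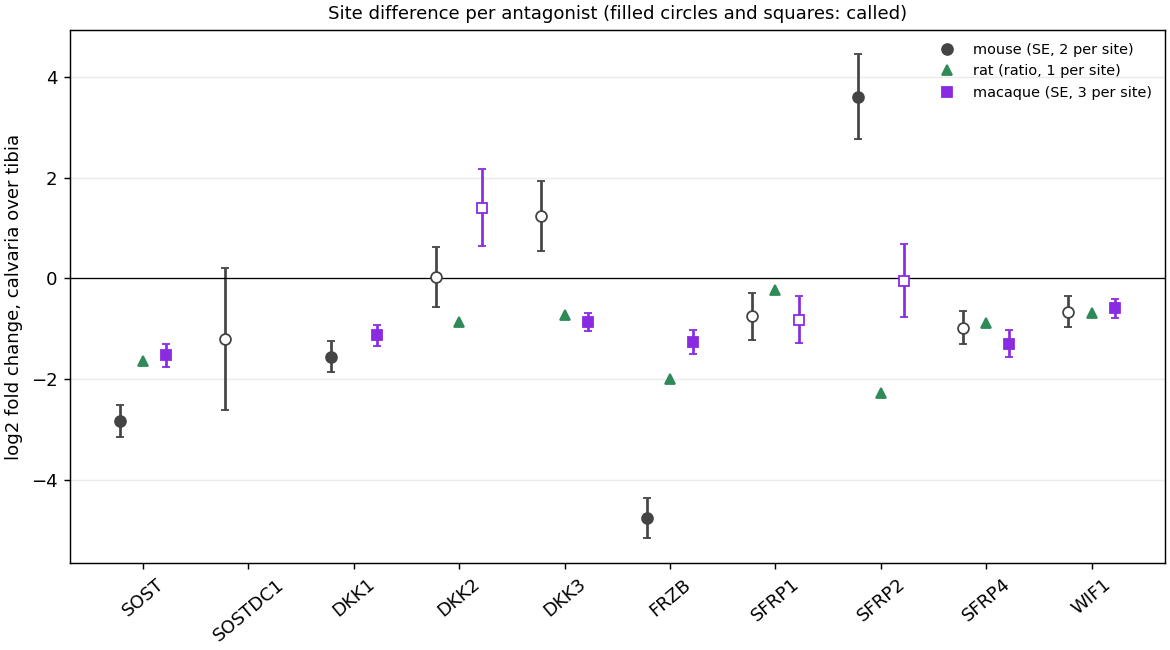
log2 fold change of calvaria over tibia for each antagonist, with circles for mouse and squares for macaque (bars are the standard error of the fit, filled symbols are called) and triangles for the rat ratio of 1 library per site. SOST, FRZB, SFRP4 and WIF1 lie below 0 in all 3 species, whereas SFRP2 runs from -2.29 in rat to 3.60 in mouse. SFRP1 also lies below 0 but was not called in mouse or macaque, and in rat its -0.23 is near the median of all genes (-0.29). The rat ratios hold no TMM factor.

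Rat, with 1 library per site, allowed no test, and a gene was set apart where the log2 ratio of CPM with 1 read added passed 2 in either direction. SFRP2 alone of the members did so, with 70 reads in R1 and 296 in R3, a log2 ratio of -2.29 and a ratio of 4.93 in favour of tibia (95% exact interval 3.79 to 6.49, which covers counting error only). Over the 19234 genes with a read, 8.14% passed this threshold towards tibia and 1.55% towards calvaria, and the median log2 ratio was -0.29. Skeletal muscle markers summed to 7.01 CPM in R1 and 431 in R3 and fibrous tissue markers to 61.9 and 134, and their part in the rat ratios was not tested. FRZB lay just inside the threshold, with 6 and 23 reads and a log2 ratio of -1.998. SOST had only 5 and 15 reads (log2 ratio -1.64, tibia over calvaria 3.50 with an interval of 1.21 to 12.3).

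Few SOST reads in rat stood beside abundant osteocyte genes, since DMP1 was at 157 CPM in R1 and 2782 in R3 and MEPE at 255 and 3726. DMP1, MEPE and PHEX were 17.7-, 14.6- and 7.77-fold higher in R3. Per read of each of these markers, SOST, FRZB, WIF1 and SFRP4 were lower in tibia than in calvaria. WIF1, for example, gave 0.224 reads per read of DMP1 in R1 and 0.0204 in R3. The exon model of rat SOST spanned 669 bases, against 2187 in mouse and 1066 in macaque. What part of the SOST transcript the rat model leaves uncounted was not tested. DKK1 was listed at 0 reads in both rat libraries of the table used here, as was a near-identical row named dickkopf-related protein 1-like. The counting limit of 3 reads each, or 0.21 and 0.245 CPM, does not cover reads lost in mapping. Reads that map equally well to such a pair of copies may not be counted for either, so the level of DKK1 in rat is uncertain. WIF1 had 502 and 695 reads, SFRP4 362 and 572, SFRP1 458 and 461 and DKK3 130 and 186. All of these were lower in R1 by CPM, as was DKK2 with 6 and 10 reads, and SOSTDC1 had 1 and 0 reads. The log2 ratio of SFRP1 was -0.23, near the median of -0.29 over all rat genes with a read.

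To compare antagonists with each other, reads were divided by the length of the merged exons and scaled so that all genes of a library sum to 1000000. By this per-length level SOST made up most of the sum of the 10 members in mouse bone at both sites. Other Wnt inhibitors lay outside this sum. SERPINF1, which is among those, had mean CPM of 1126 in mouse calvaria and 399 in tibia, against 999 and 7131 for SOST. SOST accounted for 69.2% and 82.3% of the summed level of the members in the calvariae M4 and M8, and for 92.4% and 93.9% in the tibiae M5 and M7. The mean share was 75.7% ± 9.25 (SD, n = 2) in calvaria and 93.1% ± 1.01 (SD, n = 2) in tibia. This difference of 17.4 percentage points had an exact two-sided permutation p of 0.333, the smallest that 2 against 2 libraries allow. The next members in mouse tibia were DKK1 at a per-length level of 138, SFRP4 at 111 and WIF1 at 52.2, against 5233 for SOST, and no neighbours in this order down to DKK3 overlapped. In mouse calvaria SOST at 632 led without overlap, but the order below it differed between the libraries. In M4 it ran SFRP2 (103), DKK3 (88.5), SFRP4 (69.0), DKK1 (55.4), WIF1 (39.9) and DKK2 (30.3). In M8 it ran SFRP4 (27.7), DKK1 (25.4), WIF1 (16.7), DKK3 (5.39), SFRP2 (4.35) and DKK2 (3.07).

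In macaque WIF1 was first in all 3 calvariae and in the tibiae G2 and G4, and SOST was first in T2. In calvaria the mean per-length level was 369 ± 96.6 (SD, n = 3) for WIF1, 192 ± 92.5 for SFRP4 and 186 ± 85.5 for SOST. The ranges of WIF1 (260 to 445) and SFRP4 (87.0 to 262) over the 3 animals just overlapped. In tibia WIF1 stood at 837 ± 222, SOST at 811 ± 141 and SFRP4 at 711 ± 388, and neighbours in this order overlapped. The share of SOST was 20.6%, 10.2% and 32.4% in G1, G3 and T1 and 25.8%, 26.7% and 35.0% in G2, G4 and T2. These overlapped between the sites, with a difference of means of 8.10 percentage points (exact two-sided permutation p = 0.4, where 0.1 is the smallest that 3 against 3 allow). With the libraries paired as above, the share was higher in tibia in 3 of 3 pairs (exact two-sided sign-flip permutation p = 0.25, the smallest that 3 pairs allow), a test added after the data were seen.

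The summed per-length level of the antagonists, not scaled to osteocyte markers, was higher in every tibia than in any calvaria of the same species. It was 1266 and 472 in mouse calvaria and 4988 and 6238 in tibia (6.46-fold by the means, exact two-sided permutation p = 0.333). The mouse sum was mostly SOST, at 876 in M4, 389 in M8, 4610 in M5 and 5855 in M7. The other members did not all follow SOST, since SFRP2, DKK3 and DKK2 were higher in M4 than in both tibiae. A sum without SOST was not tested. In macaque the sum was 1131, 855 and 731 in calvaria and 3322, 3457 and 1863 in tibia (3.18-fold, exact two-sided permutation p = 0.1). Neither comparison overlapped, and both p-values were the smallest their numbers allow. The per-length level holds no TMM factor, and in macaque it set the sites further apart than normalised CPM did. Its means were 369 and 837 for WIF1 and 186 and 811 for SOST in calvaria and tibia. By normalised CPM they were 713 and 1076 for WIF1 and 188 and 544 for SOST. In rat the sum was 46.2 in R1 and 105 in R3, and WIF1 (37.3% and 32.9%) and SFRP4 (31.5% and 31.8%) led, with SFRP1 next in calvaria and SFRP2 next in tibia. Genome and annotation differed between the 3 species, and the sequencing lane between macaque and the rodents, so the shares are compared between sites within a species only.

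**Figure D4:**
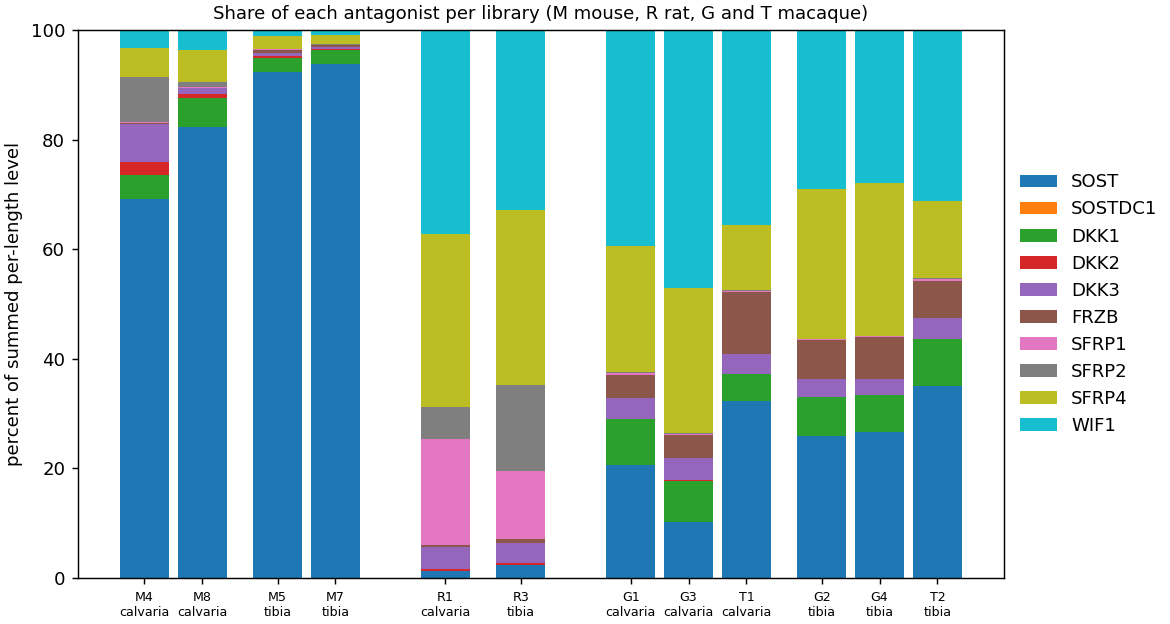
Share of each antagonist in the summed per-length level of the members, in percent, as a stacked bar for each of the 12 libraries. SOST fills 69.2% to 93.9% of the mouse bars and 10.2% to 35.0% of the macaque bars, and WIF1 and SFRP4 together fill most of the rat bars.

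The test of whether the site difference itself differed between mouse and macaque called FRZB alone of the 9 members tested, against 4.89% of 11565 genes. The log2 fold change of FRZB was 3.51 higher in macaque than in mouse (SE 0.623, edgeR adjusted p = 0.0339), that is, the deficit in calvaria was larger in mouse. Without M4 this difference was 4.32 (edgeR adjusted p = 0.013). SOST (1.32, adjusted p = 0.307), SFRP2 (-3.64, adjusted p = 0.307), DKK3 (-2.07, adjusted p = 0.348) and DKK1 (0.43, adjusted p = 0.695) did not pass. In macaque COL2A1 was at 0.228 to 9.69 CPM in every library, chondrocyte markers summed to 5.82 to 10.3 in tibia and 10.6 to 12.4 in calvaria, and PRG4 had no read in 5 of 6 libraries, unlike in the mouse tibiae. The part of cartilage in this difference was not tested.

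Most other genes of the pathway were not called. Of the Wnt ligands and their R-spondin partners, 1 of 19 tested in mouse and 3 of 15 in macaque were called, all higher in tibia, where 1.57% and 9.43% of all genes were. RSPO3, which amplifies Wnt signals, had the smallest p in mouse (log2 fold change -1.31, adjusted p = 0.167), and WNT10B, a ligand that favours bone formation, in macaque (-2.34, adjusted p = 7.94e-08). Of the receptors and their partners, 2 of 21 in mouse and 6 of 18 in macaque were called, again all higher in tibia and again beside 1.57% and 9.43% of all genes. FZD4, a Frizzled receptor, was called in both (-1.14, adjusted p = 0.195, and -0.64, adjusted p = 0.161), LGR6, an R-spondin receptor, led in mouse (-1.10, adjusted p = 0.155) and FZD7 in macaque (-1.25, adjusted p = 0.000703).

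Of the feedback targets, which Wnt signals can switch on, 1 of 13 in mouse and 3 of 12 in macaque were called higher in tibia, beside 1.57% and 9.43% of all genes. In macaque 1 was called higher in calvaria, where 10.3% of all macaque genes were. TNFRSF11B, which encodes the osteoclast inhibitor osteoprotegerin, was called in both (-2.49, adjusted p = 0.00403, and -0.77, adjusted p = 0.0541). The macaque call with the smallest p was APCDD1, a membrane-bound Wnt inhibitor (-1.55, adjusted p = 1.33e-06), and the call towards calvaria was MYC, a growth regulator (1.29, adjusted p = 0.000973). Of the other Wnt inhibitors, 2 of 10 in mouse and 2 of 8 in macaque were called higher in tibia, and 1 in mouse higher in calvaria, beside 1.57%, 9.43% and 0.712% of all genes. APCDD1 and NOTUM were in this list and among the feedback targets, so the macaque call of APCDD1 counts in both. TPBG, a membrane glycoprotein that dampens Wnt signals, was called in both (-2.38, adjusted p = 0.000652, and -1.79, adjusted p = 1.24e-08), and SERPINF1, which encodes the secreted factor PEDF, was the call towards calvaria (1.497, adjusted p = 0.196). The median log2 fold changes of the 4 lists ran from -0.29 to -0.10 in mouse and from -0.83 to 0.03 in macaque, against 0.05 and 0.03 over all genes.

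The genes whose values were most like SOST over the 12 libraries, by the root mean square difference of log2(CPM + 1) centred in each species, were NT5E (0.536), CLU (0.545), ID4 (0.567), MECOM (0.613) and ENPP2 (0.627), among 4662 candidates with a median difference of 1.12. For FRZB they were CLU (0.510), ID4 (0.732), NDRG1 (0.765), NT5E (0.766) and TNFRSF11B (0.798), with a median of 1.41. NT5E, an ectonucleotidase, was lower in calvaria in all 3 species on this scale, by -2.20 in mouse, -2.21 in rat and -1.003 in macaque. CLU, which encodes the extracellular chaperone clusterin, was lower by -3.19, -0.41 and -0.98. The 12 libraries came from few animals or pools, and this likeness is a description of their values.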

How the data were processed

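Poly(A)+ RNA was sequenced from periosteum-free, collagenase-treated and pulverised bone. By the study's methods the authors mapped reads with HISAT2 to mm10, rn6 and the macaque MacaM assembly and counted them on merged exons with HTSeq-count, without strand. The submitters' processing notes name BWA 0.7.10-r789 and not HISAT2, so which aligner made these tables is uncertain. The deposited tables hold a raw count of reads per gene and library, and beside it a normalized signal of the authors, equal to the count times a constant per library, which was not used. Rows naming no gene (0.00261% to 0.0663% of the reads) were left out, and rows of 1 symbol were summed. In macaque 3 members were matched by RefSeq gene ID.

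Genes with at least 1 read in a species were tested with edgeR 4.0.16 in R 4.3.3 (TMM, quasi-likelihood test, Benjamini-Hochberg adjustment), and the interaction over 10 libraries. Rat ratios had 1 read added and no test. Per-length shares were compared by exact permutation tests (scipy 1.17.1). Steps were tested on simulated data. The edgeR p-values weigh the spread of a gene between the libraries of a site together with that of all genes tested. They therefore also depend on which genes are tested. The libraries were pools of 3 animals in mouse. Bone of the skull and leg was paired in the study, but the pairs were not named. After site means were taken out, the r of macaque libraries over 12305 genes was 0.203 (G1, G2), 0.282 (G3, G4) and 0.446 (T1, T2), while other calvaria and tibia pairs gave -0.351 to 0.0898. The genes named are the 10 members, pathway genes called in both species or with the smallest p per list, species and direction, and the 5 genes most like SOST and FRZB. The members and lists were chosen with earlier results of these data known. Alternatives were other scalings, filters, thresholds, tools (DESeq2 1.42.0), pairings and fits without each library.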

Additional observations from a re-analysis of the deposited data

Results flagged for a closer look

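FRZB drew attention because its site difference was not the same in mouse and macaque: the log2 fold change of calvaria over tibia was 3.51 higher in macaque (SE 0.623, edgeR adjusted p = 0.0339), from -4.76 in mouse and -1.26 in macaque. FRZB was higher in both mouse tibiae than in both calvariae, while in macaque T1 and T2 were level. Without each library in turn the difference kept its direction and its call, from 2.98 without T1 to 4.32 without M4.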

How the results depend on the processing

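In mouse, 4 of 10 members were called, beside 510 of 22339 genes. With genes that had a read in every library 1 of 9 was called (14 of 16740 genes). With edgeR's expression filter it was 1 of 9 (29 of 15402 genes), and with the symbols of all 3 species 2 of 8 (32 of 10536 genes). In fits without each library the mouse count ran from 3 to 9, the interaction count from 1 to 3 (1 with all libraries; 3 without M4 or M8 and 2 without G3) and the macaque count from 5 to 7. DKK2 in mouse turned to -0.022 with library size alone, to -0.59 with a replicate block of either assumed pairing, to -2.19 without M4 and to -0.20 without M7 (highest 0.85, without M8), DKK3 to -1.66 without M4 (highest 2.12, without M8), and the interaction of DKK3 to 0.76 without M4 (lowest -2.99, without M8). With either block SFRP2 in mouse was no longer called (edgeR adjusted p = 0.534 and 0.343), and 3 members stayed called, beside 295 and 395 of 22339 genes. In macaque the pairing as a replicate block changed no call other than those of DKK2 and SFRP1; SFRP2 turned to 0.33 with it, to 0.41 with the library letter as a batch, to 1.73 with G libraries only, and to 0.13, 0.24 and 1.45 without G3, T1 and T2 (lowest -0.65, without G1). The rat count of 1 became 2 with 0.5 reads added, 0 with TMM factors (where SFRP1 turned to 0.058) and 3 at a threshold of 1. The difference in SOST share kept its sign in every setting, from 10.9 to 23.97 percentage points in mouse and from 2.66 to 13.8 in macaque. Of the other values for single members, 345 kept direction and side of the threshold or, in rat, kept direction and stayed within the interval of counting error. A rat value among them may have crossed the threshold. In mouse, macaque and the interaction, 17 lost a call and 17 gained it. The cause of these shifts was not tested. Few reads limit DKK2 and SFRP2 in macaque, SOST and FRZB in rat, and SOSTDC1 throughout.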
